A study of Mus musculus with 4 samples.

Results

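Cdx1, Cdx2 and Cdx4 are the caudal-type homeobox genes of the mouse, and the CTCF peaks described here are those within their RefSeq spans and the 100 kb on each side. The genes were chosen by name, but with it already known from these lists that Cdx4 held a strong peak called in distal forelimb only, so the pattern at Cdx4 is given as a description and supports nothing further. Peaks of the 4 deposited lists that shared at least 1 base were joined to 1 region. The 3 windows held 67 of the 121759 regions of the genome, namely 25 around Cdx1, 28 around Cdx2 and 14 around Cdx4. All coordinates are on mm10 and count from 1.

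The libraries come from ChIP-seq with a CTCF antibody, in which DNA bound by the protein is pulled down and sequenced. All embryos were wild type on the B6CBAF1 background, and each of 4 tissues gave 1 library. Posterior trunk, labelled E10 (E9.75 to E10 by its protocol), was a pool of about 30 embryos and comprised tailbud, presomitic mesoderm and 2 to 3 pairs of somites, with as little of the hindlimb buds as possible. Brain was a pool of 6 telencephalons at E12.5. The distal and proximal parts of the forelimb, of the same age, are older libraries that the submitters analysed again. Differences between tissues are therefore without replicates, and tissue cannot be told apart from library or, for trunk, from stage. These are bulk tissues, so fewer cells with a bound site and weaker binding in each cell cannot be told apart either. Peaks carry no expression values, so the tissue labels were not checked against marker genes.

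Cdx proteins are transcription factors that drive the outgrowth of the posterior body and switch on Hox genes there, downstream of Wnt, FGF and retinoic acid signals. All 3 genes are known to be active in the tailbud of the early embryo, and Cdx1 and Cdx2 again in the intestinal lining. CTCF, through its zinc fingers, marks the borders of chromatin domains and the feet of loops, where cohesin is held. Cdx2 belongs with Pdx1 and Gsx1 to the ParaHox cluster, a sister of the Hox clusters, while Cdx4 lies beside the X-inactivation centre.

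CTCF binding common to all tissues was the most frequent pattern around the Cdx genes, as it was over the genome. Of the 67 regions, 33 were called in all 4 tissues, or 49.3%, against 42.4% of all regions of the genome. The median over gene windows with at least 10 regions was 47.8%, close to the share found here. Regions called in 1 tissue only numbered 20, or 29.9%, against 39.6%. The window of Cdx2 had the highest shared part, with 17 of 28 regions. Cdx1 had 12 of 25 and Cdx4 had 4 of 14, or 28.6%, which is below the share of the genome. Inside the 3 gene spans lay 7 regions, of which 1, in Cdx1, was called in all 4 tissues. The spans are a small part of the windows: 17338 bases of 217 kb at Cdx1, 6350 of 206 kb at Cdx2 and 8827 of 209 kb at Cdx4.

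The lists differed in depth, which bears on every call. Relative to distal forelimb, the shallowest library, the depth was 2.21 in posterior trunk, 2.02 in brain and 1.08 in proximal forelimb. Of the 67 regions, trunk called 61, brain 44, distal forelimb 43 and proximal forelimb 40. These were 91.0%, 65.7%, 64.2% and 59.7%, beside 87.5%, 60.5%, 52.8% and 52.0% over the genome. By tissue, the 20 regions called once were 14 of trunk, 5 of distal forelimb and 1 of brain. Over the genome, the 48233 regions called once included 34525 of trunk, 3784 of distal forelimb and 7213 of brain. As parts of all regions these were 28.4%, 3.11% and 5.92%, a scale on which the 14, 5 and 1 are out of 67.

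**Figure D1:**
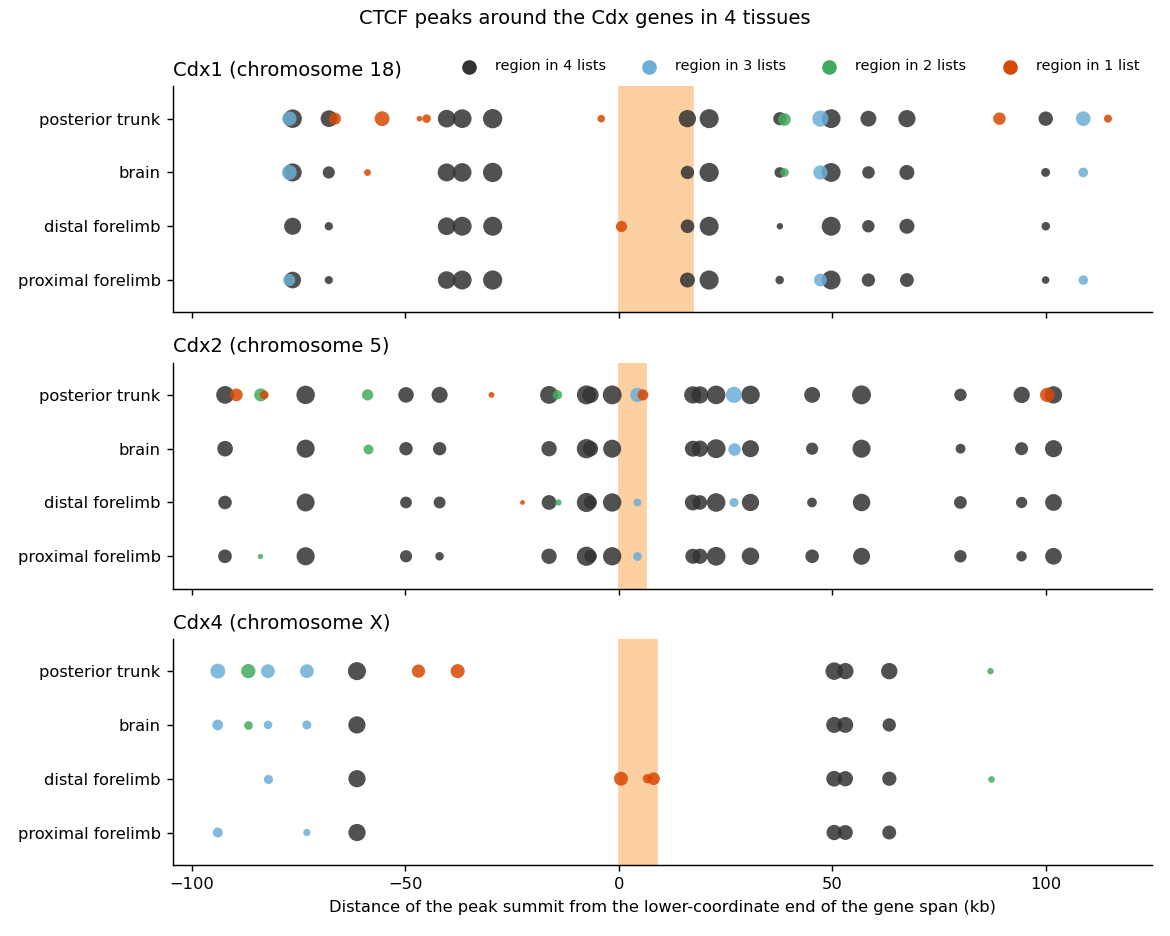
Each point is a CTCF peak summit, placed by its distance in kb from the lower-coordinate end of the gene span (x axis) and by tissue list (y axis), and larger points rank higher by p within their list. Colour gives the number of lists that called the region, and the shaded band is the gene span: the band of Cdx4 holds 3 distal forelimb summits and no others, and that of Cdx2 holds no brain summit.

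Cdx4 held 3 CTCF regions within a span of 8827 bases, and each was called in distal forelimb and in no other tissue. The gene occupies chromosome X 103321398–103330224 and runs in the direction of rising coordinates. The first region, chrX:103321497-103322058, lay 99 to 660 bases past the gene start. There the authors' fold, the ratio of summit pileup to local background, was 7.43, from a pileup of 44 overlapping fragments over a background of 5.06, and the −log10 p was 26.5. The second, chrX:103327951-103328244, began 6553 bases past the start and had a fold of 3.77, from 23 fragments over 5.36, with a −log10 p of 8.52. The third, chrX:103329360-103329720, began at 7962 bases, close to the far end of the gene, and had a fold of 5.66, from 35 over 5.36, with a −log10 p of 17.6. The strongest was thus at the start of the gene and the weakest in between. Exon positions were not used here, so the regions are placed by distance alone.

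By rank within the distal forelimb list, with the strongest peak at 100, the 3 regions stood at percentiles 48.5, 19.1 and 39.1 in order along the gene. Among the 3784 regions called only there, whose median percentile was 5.40 and median fold 3.06, they came 3rd, 364th and 11th by fold. The first and the last were therefore near the top of that class, while all 3 were in the weaker part of the whole list.

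The upstream sequences of Cdx4 and Cdx2 are shown because in both genes a region called in 1 tissue lay within 1 kb of the gene start. They are the 250 bases before the start, from RefSeq on GRCm38.p6, the assembly of mm10, written 5′ to 3′ along the gene, with each CpG in capitals. The Cdx4 sequence lies at chrX:103321148-103321397 on the plus strand and that of Cdx2 at chr5:147307250-147307499 on the minus strand.
Cdx4: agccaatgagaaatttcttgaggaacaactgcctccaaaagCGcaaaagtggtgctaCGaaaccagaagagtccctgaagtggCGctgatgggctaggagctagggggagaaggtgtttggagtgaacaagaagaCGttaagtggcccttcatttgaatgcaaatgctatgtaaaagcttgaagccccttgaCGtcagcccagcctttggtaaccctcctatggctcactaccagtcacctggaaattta
Cdx2: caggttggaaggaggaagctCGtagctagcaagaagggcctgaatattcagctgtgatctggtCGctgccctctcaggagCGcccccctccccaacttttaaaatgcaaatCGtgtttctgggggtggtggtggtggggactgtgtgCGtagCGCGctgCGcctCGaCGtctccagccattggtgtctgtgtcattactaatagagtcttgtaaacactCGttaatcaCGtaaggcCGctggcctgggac

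Neither sequence was itself covered by a peak. The nearest region began 99 bases after the last printed base of Cdx4, and that of Cdx2 ended 377 bases from the printed part. Cdx4 had 5 CpG and 48.4% G and C, and Cdx2 had 13 CpG and 55.2%, where the median over 32817 RefSeq promoters was 6 CpG. A CTCF-like motif was searched on both strands as CCANNAG joined to AGNNGGC at their shared AG, and neither sequence held it. It was found in 2.07% of all promoters. The sequences under the peaks were not searched, so its absence here says nothing about the called regions. Within the windows, 0 of 10 RefSeq promoters around Cdx2 and 0 of 4 around Cdx4 overlapped a region of any list when 50 bases past the start were included. Across the genome 18.6% of promoters did. Both regions described at the gene starts lay past these promoter windows, and promoters around Cdx1 were not analysed here.

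At the pileups of distal forelimb, scaled for depth, the Cdx4 regions stood above what the other lists needed for a call. Scaled to trunk depth, the 44 fragments at the first region would be 97.2, where 23 would have sufficed for a call over a background scaled the same way. At the other 2 regions the scaled pileups were 50.8 and 77.3, and 24 sufficed at either. At brain depth the 3 regions came to 88.8, 46.4 and 70.6 fragments, with 22, 23 and 23 needed. Proximal forelimb, whose depth was nearly that of distal forelimb, gave 47.7, 24.9 and 38.0 with 15 needed at each. These scaled values rest on the pileups of the 1 list that called the regions, and the measured backgrounds of the other libraries at these places were not analysed here. Whether the Cdx4 calls reflect bound CTCF was not tested.

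**Figure D2:**
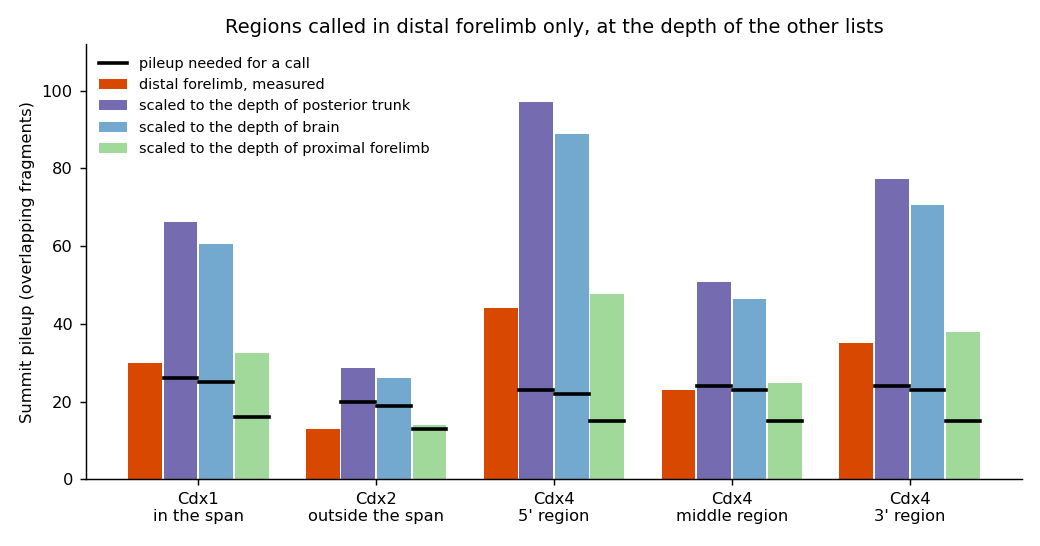
Bars give the summit pileup in overlapping fragments (y axis) for the 5 regions called in distal forelimb only, as measured there and scaled to the depth of each other list, and black marks give the pileup needed for a call. At the 3 Cdx4 regions and the Cdx1 region every scaled bar stands above its mark, from 24.9 against 15 to 97.2 against 23, while at the weak region near Cdx2 the bar for proximal forelimb, 14.1, is just above 13.

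The 3 Cdx4 calls stood alone in a stretch with no other CTCF peak. Posterior trunk had no peak between 103283813 and 103371267, a gap of 87.5 kb with Cdx4 inside it. In brain and proximal forelimb the gap around the gene was 111 kb, from 103260571 to the same position. Distal forelimb had the same outer borders and only these 3 peaks between them. The posterior trunk, which contains the tailbud, had no called CTCF site in Cdx4 or within 37.6 kb of it.

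The first region was also broad for its height. Its width was 562 bases, and 98.6% of the 4509 distal forelimb peaks with a pileup within 10% of its own were narrower, with a median of 337. The other regions of Cdx4, 294 and 361 bases wide, were broader than 77.3% and 81.0% of peaks of like pileup. Against regions called in distal forelimb only at like pileup, the 3 were broader than 86.7% of 15, 90.7% of 332 and 92.0% of 25. All 3 were thus on the broad side for their height, though the last comparison rests on 15 and 25 regions for the first and the last of them.

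**Figure D3:**
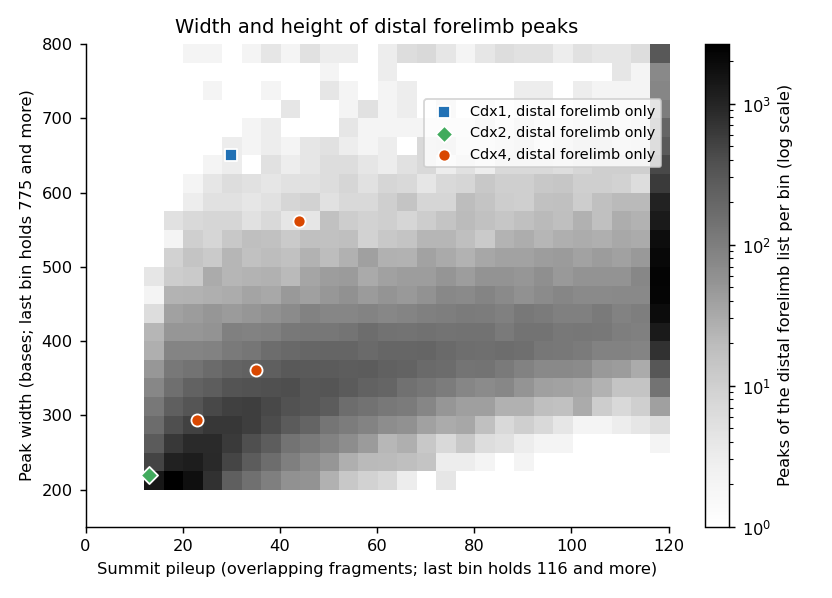
Shading counts distal forelimb peaks by summit pileup in overlapping fragments (x axis) and width in bases (y axis), on a log scale, and symbols mark the 5 regions called in distal forelimb only around the Cdx genes. The Cdx1 region, at 30 fragments and 650 bases, and the first Cdx4 region, at 44 and 562, lie above the dense band, whereas the Cdx2 region, at 13 and 220, lies at its lower corner.

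Counts per gene put Cdx4 beside much longer genes. At least 1 region called in distal forelimb only lay in the span of 1746 of 49943 annotated genes, or 3.50%, and at least 3 lay in 44 of them, or 0.0881%. Cdx4 was the shortest of these 44 and the only one under 100 kb, the next being Adamts16 with 114 kb, and the gene with the most such regions, 6, was Lsamp. Among the 47201 genes under 100 kb, 38 had at least 2. The next shortest of these after Cdx4 were Dscc1, at 14.4 kb, and 9130230L23Rik, at 16.4 kb. Only 2 runs of 3 such regions with starts within 10 kb were found across the genome, that of Cdx4 over 7.86 kb and another in Camkmt over 9.93 kb. The genes named in this paragraph were picked after their values were seen.

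**Figure D4:**
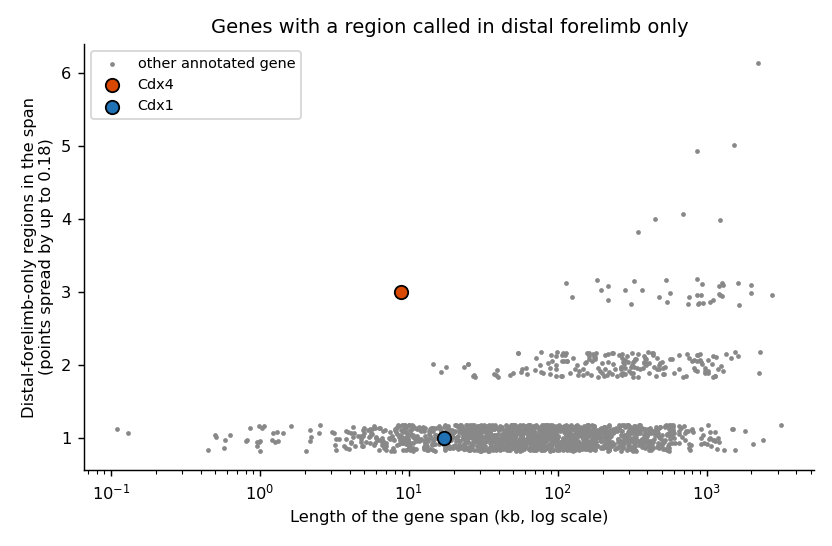
Each point is a gene with at least 1 region called in distal forelimb only, by the length of its span in kb (x axis, log scale) and the number of such regions in it (y axis, spread slightly). Cdx4, at 8.83 kb with 3 regions, stands to the left of all other genes with 3 or more, which begin at 114 kb, while Cdx1 lies among the many genes with 1.

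Further out from Cdx4, shared binding within the window was limited to 4 regions. On the lower-coordinate side was chrX:103259678-103260571, with folds of 13.8 in trunk, 12.1 in brain, 14.4 in distal and 13.6 in proximal forelimb. On the other side lay 3 regions in Chic1. The first, chrX:103371267-103372037, had folds of 10.5, 8.14, 9.36 and 7.78 in the same order. The others had 7.28, 7.87, 8.39 and 7.16 at chrX:103374228-103374638, and 10.9, 5.71, 8.36 and 7.68 at chrX:103384475-103384945. The stretch over Cdx4 was thus bordered on both sides by binding common to the tissues.

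Posterior trunk alone had 2 regions between that lower border and Cdx4. The nearer, chrX:103283465-103283813, was 37.6 kb from the gene with a fold of 5.78, and the other, chrX:103274301-103274586, was 46.8 kb away with 4.93. Their pileups of 59 and 50, scaled to brain depth, were 53.9 and 45.7 where 19 sufficed. In the part of the protein-coding gene 4930519F16Rik inside the window lay 4 more regions. All were called in trunk and brain and none in all tissues, with trunk folds of 5.31 to 7.16. Beyond the window the gene also held chrX:103183447-103183977 and chrX:103193039-103193473, each called in all 4 tissues. A weak region at chrX:103408320-103408600, in Chic1 near Tsx, was called in trunk and distal forelimb with folds of 2.51 and 3.21. The window ends before Tsix, the antisense gene of Xist, where the nearest region outside it was chrX:103440676-103441244, called in all 4 tissues with folds of 9.82, 10.2, 10.7 and 11.0.

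Cdx2, the best known of the family for its part in trophectoderm and gut, held 2 regions and neither was called in brain. The gene spans 6350 bases at chromosome 5 147300900–147307249 and runs toward lower coordinates. The region chr5:147305100-147305429, 1820 to 2149 bases past the gene start, had folds of 4.82 in trunk, 3.34 in distal and 3.70 in proximal forelimb. Pileups there were 89, 20 and 22, at percentiles 53.4, 11.8 and 15.8 of their lists, and −log10 p values were 33.5, 6.71 and 8.07. Scaled to brain depth the pileups came to 81.3, 40.4 and 40.9, where between 21 and 30 would have been called. By percentile the site was higher in the trunk list than in both forelimb lists. The lists held 106662 peaks in trunk, 64793 in distal and 63873 in proximal forelimb. Percentiles of lists so unlike in length do not compare the tissues directly. When all lists were kept to equal length, the site was still called in 3 of them.

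The region nearest the Cdx2 start was called in posterior trunk only. It lay at chr5:147306369-147306872, 377 to 880 bases past the start, with a fold of 2.88, a pileup of 52, a −log10 p of 11.3 and percentile 28.4. At the depths of brain, distal and proximal forelimb the chance of a call at equal occupancy was 0.997, 0.897 and 0.923. These chances rest on the pileup of trunk, the 1 list that called the region. The region was no longer in the trunk list when all lists were kept to equal length.

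Shared regions bordered Cdx2 closely on both sides. Below it, chr5:147298978-147299605 lay 1.29 kb from the gene with folds of 12.3 in trunk, 14.1 in brain, 15.3 in distal and 14.8 in proximal forelimb. The strongest near the gene was chr5:147292868-147293596 in the non-coding gene Gm35112, 7.30 kb away, at percentiles 95.9, 98.0, 96.9 and 97.4. Its neighbour chr5:147294088-147294458 was weaker, with folds of 5.24, 5.29, 3.83 and 3.50. Above Cdx2, in the urate metabolism gene Urad, lay chr5:147317939-147318462 with 8.36, 7.74, 8.60 and 7.25. Also in Urad was chr5:147319708-147320074 with 6.81, 6.76, 5.05 and 5.93. Past Urad came chr5:147323428-147323928, 16.2 kb from Cdx2, with 9.96, 12.9, 14.4 and 14.8. Cdx2 thus sat between flanks bound in every tissue, as Cdx4 did, but within 1.29 kb and 10.7 kb where the closest for Cdx4 were at 60.8 and 41 kb.

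Toward the rest of the ParaHox cluster, 6 regions lay in the 25.1 kb between Pdx1, the pancreatic homeobox gene, and Cdx2. Of these 4 were called in all tissues: the 3 just named below Cdx2 and chr5:147284299-147284802. This last had folds of 12.8 in trunk, 7.69 in brain, 8.33 in distal and 9.19 in proximal forelimb. The remaining pair were a weak distal forelimb peak, chr5:147278140-147278359, at a fold of 2.63 and percentile 0.894, and chr5:147286428-147286677, called in trunk and distal forelimb at 2.52 and 2.81. Pdx1 itself held 1 region, called in trunk only with a fold of 2.15, and the span of Gsx1 held 0. For the Pdx1 region the chance of a call at equal occupancy was 0.750 in brain, 0.379 in distal and 0.405 in proximal forelimb. Its absence from those lists therefore says little. Of the 14 trunk-only regions of the windows, this chance was at least 0.95 for 10 in brain and 7 in each forelimb list. Between Gsx1 and Pdx1, over 79.1 kb, 4 of 8 regions were shared by all tissues.

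Further shared regions followed on either side of this stretch. In the Pdx1 neighbour Plut, a non-coding gene, chr5:147250831-147251317 had folds of 7.58 in trunk, 5.53 in brain, 5.14 in distal and 5.21 in proximal forelimb. Also in Plut, chr5:147258703-147259163 had 8.64, 5.35, 5.18 and 3.58. Beyond Plut were chr5:147227166-147227941, at percentiles 89.5, 86.2, 84.7 and 86.4 of the lists, and chr5:147208424-147208912, with folds of 12.1, 8.45, 6.61 and 6.48. Of the pair beyond Plut, the former stood at a similar rank in all lists and the latter was highest in trunk.

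In the receptor kinase gene Flt3, on the other side, 5 regions were shared. The strongest in trunk were chr5:147331495-147331941, with folds of 13.5 in trunk, 11.8 in brain, 14.6 in distal and 14.5 in proximal forelimb, and chr5:147357387-147358017, with 13.7, 14.0, 13.7 and 12.1. The region chr5:147345962-147346396 had 8.46, 4.26, 4.09 and 6.61. At chr5:147394904-147395422 trunk had 10.3 and the others 5.25, 5.0 and 4.41, while at chr5:147380749-147381133 the folds were 4.05, 3.32, 6.23 and 5.54. The last shared region of the window was chr5:147402389-147403322, with 9.91, 11.5, 12.8 and 11.7. Next to it, chr5:147401057-147401458 in Gm26597 was called in trunk only, at a fold of 4.33, where 87.7 fragments at brain depth would have stood against 35 needed. The remaining trunk-only regions outside the Cdx2 span had folds of 2.15 to 3.54, and 3 more were called in trunk and 1 or 2 other tissues.

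Cdx1 held a distal forelimb region near 1 end and a shared region near the other. The gene spans 17338 bases at chromosome 18 61018862–61036199. The region 61019148–61019797 lay close to the lower end of the span and came from distal forelimb alone. Its fold was 4.42, from a pileup of 30 over 6.02, with a −log10 p of 12.3 and percentile 29.7. With 650 bases it was broader than 99.8% of the 5937 distal forelimb peaks with a pileup within 10% of its own, whose median width was 290. Among distal-forelimb-only regions of like pileup it exceeded 98.5% of 66. Scaled to the depths of trunk, brain and proximal forelimb its pileup was 66.3, 60.6 and 32.5, against 26, 25 and 16 needed. It ranked 69th by fold of the 3784 regions of its class.

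The shared region of Cdx1, 61034590–61035205, lay close to the upper end of the span. Folds were 9.06 in trunk, 4.52 in brain, 5.36 in distal and 6.84 in proximal forelimb, from pileups of 239, 70, 55 and 74, and −log10 p values were 142, 25.3, 24.3 and 38.8. To compare ranks over the same regions, peaks were ranked by p among the 51657 regions called in all 4 lists. On that scale the region stood at 54.9 in trunk, 22.3 in brain, 33.5 in distal and 47.4 in proximal forelimb, a range of 32.7 points. Only 5.06% of shared regions had a range as wide, and the lowest value here was that of brain.

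Strong shared binding surrounded Cdx1 as well. Past its upper end, in the predicted gene Gm52351, 61039511–61040464 was 3.31 kb away, with folds of 11.7 in trunk, 15.6 in brain, 16.4 in distal and 17.2 in proximal forelimb. On the lower side, 60988946–60989710, between Camk2a and Slc6a7, stood at percentiles 98.5, 98.8, 95.7 and 97.3 and was the highest-ranked of the window in each list. In Camk2a, a kinase gene of neurons, 60981845–60982567 had folds of 9.94, 11.7, 14.3 and 14.0. Also in Camk2a were 60978304–60978786 with 8.01, 10.3, 10.6 and 10.1, and 60942044–60942762 with 11.6, 11.7, 12 and 10.9. In these 3 regions of Camk2a every list gave a fold of at least 8.01.

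The widest difference in rank among the 33 shared regions of the windows was also in Camk2a, 67.5 kb from Cdx1. At 60950619–60951379 the fold was 8.67 in trunk, 4.2 in brain, 3.36 in distal and 3.41 in proximal forelimb, from pileups of 177, 47, 22 and 22. Among shared regions it ranked at 42.9 in trunk but 13.2, 3.87 and 3.98 in the others. A lead of trunk over the next list as wide as this, 29.8 points, was seen in 0.159% of shared regions. It was singled out after its values were seen, and how far depth or stage contributes was not tested.

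In Pdgfrb, a growth factor receptor gene on the upper side, 3 regions were shared, with folds in trunk of 11.5 at 61068177–61068873, 8.38 at 61077078–61077564 and 4.13 at 61056411–61056703. In brain, distal and proximal forelimb these were 13.3, 17.4 and 16.6 at the first, 4.38, 5.42 and 5.95 at the second and 3.63, 3.05 and 3.69 at the third. The pair 61086006–61086641, just past Pdgfrb, and 61118641–61119012, in Csf1r, had trunk folds of 11.4 and 5.32. The brain, distal and proximal values were 7.16, 8.14 and 6.82 at the former and 2.85, 3.68 and 3.23 at the latter. Only the first of the Pdgfrb regions was stronger by fold in both forelimb parts than in trunk. By rank among shared regions its 4 lists lay within 7.82 points, and 78.7% of shared regions had a range as wide. Folds of lists unlike in depth do not compare the tissues directly.

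Regions missing from distal forelimb only were found in this window and that of Cdx4. They numbered 5 of the 67, and made up 2.85% of all regions of the genome. Around Cdx1 there were 3 of them, in Camk2a, Pdgfrb and Csf1r, with proximal forelimb folds of 4.21, 4.17 and 4.0. At the first 2, 60941500–60941855 and 61065838–61066267, the proximal pileups of 43 and 56 scaled to 39.6 and 51.6 where 20 and 24 sufficed. Trunk alone had 7 regions around Cdx1, of which those with a fold of at least 4 were 60963111–60963639 in Camk2a at 6.02 and 61107842–61108161 in Csf1r at 4.04. The other 5 had folds of 2.24 to 3.08, and brain alone had 1, 60959742–60960011, at 2.62.

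**Figure D5:**
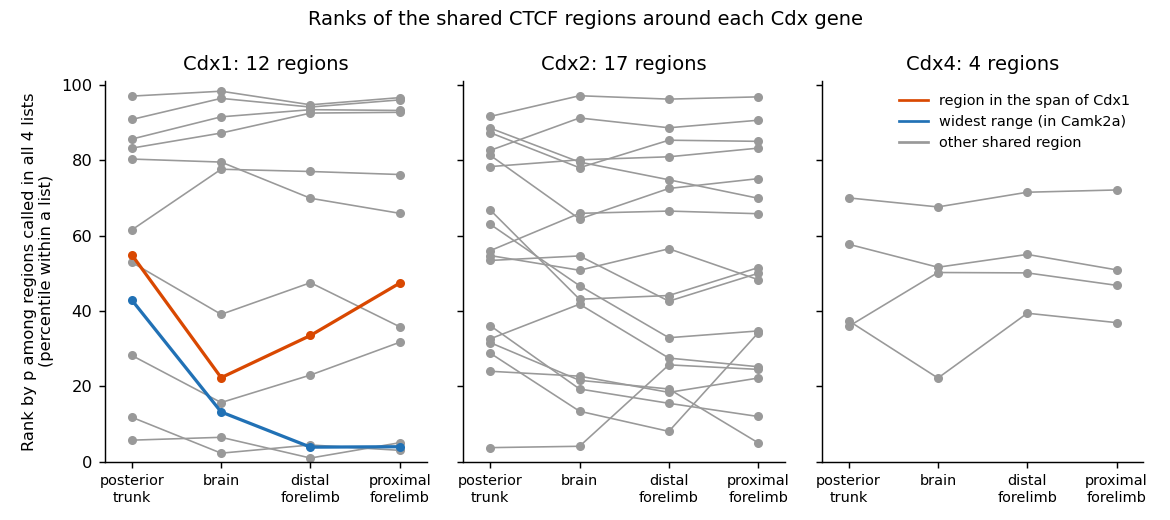
Lines join the rank of each shared region among the 51657 regions called in all 4 lists (y axis, percentile within a list) across the 4 tissues (x axis), with a panel for each Cdx gene. The region in the span of Cdx1 falls from 54.9 in trunk to 22.3 in brain, the marked region in Camk2a from 42.9 to below 4 in both forelimb parts, and the lines of Cdx4 stay within 17.2 points.

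Over all 33 shared regions of the windows the ranks and summits of the 4 tissues lay about as close as elsewhere. The median range of rank was 14.3 points, beside 14.0 over the genome, and it was 11.9 around Cdx1, 16.6 around Cdx2 and 10.6 around Cdx4. Trunk had the highest rank in 14 of the 33, or 5, 8 and 1 by gene, where it did so in 33.9% of all shared regions. Summits of the 4 lists differed by a median of 13 bases, and by 56 at most, against a genome median of 19. The tissues thus gave the same summit positions at these sites to within 56 bases.

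Among 17 other genes, of the posterior growth programme or the ParaHox cluster, 1, Evx1, had a distal-forelimb-only region in its span, beside 3.50% of all genes. With so few genes this count does not set the list apart. The list held signals (Wnt3a, Fgf4, Fgf8, Gdf11), makers and breakers of retinoic acid (Aldh1a2, Cyp26a1) and its receptor Rarg. It also held tailbud transcription factors (T, Tbx6, Msgn1, Lef1, Sp5, Sp8, Nkx1-2, Evx1) and the ParaHox genes Gsx1 and Pdx1. The share of regions called in all 4 tissues within 100 kb ran from 32% at Evx1 to 73.1% at Fgf4, with a median of 53.8%. Over 33260 genes with at least 10 regions in the window the median was 47.8%. Cdx1 had 48.0%, Cdx2 60.7% and Cdx4 28.6%. The share of Cdx4 rests on 4 of 14 regions and depended on the window, with 12 of 25 regions called in all tissues within 200 kb.

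By window, 8 of the 17 genes had a distal-forelimb-only region, as did 27.2% of all genes and each of the 3 Cdx genes. A trunk-only region lay in the windows of all 17, beside 85.9% of all genes, and a brain-only region in those of 6, beside 44.4%. Evx1 had 3 distal-forelimb-only regions in its window and 1 of them in its span, and Cdx4 had 3 in its span. At least 3 in a window were found for 0.675% of all genes. Aldh1a2 had 2, and Wnt3a, Tbx6, Msgn1, Lef1, Gsx1 and Pdx1 had 1 each, of which those of Gsx1 and Pdx1 are the same weak peak as in the Cdx2 window.

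Genes most like each Cdx gene in the mix of tissue patterns were found by comparing, over 15 patterns of presence in 4 tissues, the shares of regions in their windows. The difference runs from 0 for the same mix to 1 for no pattern in common. Nearest to Cdx1 were Kat7 at 0.040, Whrn at 0.050 and Etfb at 0.051, where the median over genes was 0.258. Nearest to Cdx2 were Gm25214, Iqch and Gm35399, at 0.048, 0.053 and 0.060. Nothing came as close to Cdx4, for which Gm4827 and Trpa1 stood at 0.143 and Grm7 at 0.167, with a median of 0.457. The Cdx4 window holds 14 regions, against 25 for Cdx1 and 28 for Cdx2. Each region thus shifts its difference more, and the values of the 3 genes are not directly comparable. Gm4827 had 1 distal-forelimb-only region of 14, Trpa1 2 of 14 and Grm7 4 of 21, against 3 of 14 for Cdx4.

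The regions nearest to the 100 kb border differed between the genes. Just inside it were 61133275–61133598 at Cdx1, trunk-only with a fold of 2.73 and 97.1 kb away, and chr5:147402389-147403322 at Cdx2, 95.1 kb away. At Cdx4 it was chrX:103227317-103227633, 93.8 kb away with a trunk fold of 7.16. Just outside were 61140859–61141083 at Cdx1, called in brain only with a fold of 2.52, and chr5:147418136-147418727 at Cdx2, 111 kb away and called in all tissues at 9.20, 6.86, 6.48 and 6.25. For Cdx4 it was the region in Tsix given above.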

How the data were processed

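The authors deposited a narrowPeak list of CTCF peaks for each library. The submitters' processing notes name build mm10, MACS2 2.1.1.20160309, SAMtools 1.9, Bowtie2 2.3.5 and cutadapt 1.16. Their options, and whether a control was used, were not given in the sources used here. Each deposited row holds a fold (ratio of pileup to local background, pseudocount 1), −log10 p and q values, a score that is 10 times the −log10 q, and a summit offset. The lowest deposited −log10 q was 1.30 to 1.31.

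Rows sharing an interval were merged to the strongest summit, and chromosomes 1 to 19, X and Y were kept. Whole pileups and backgrounds were recovered from fold and p and gave back the −log10 p to within 0.00031. The smallest background, 4.23 to 9.34, gave relative depth, and absolute depth is unknown. Lists held 63873 to 106662 peaks. The steps were tested on simulated data, where 100% of 20000 pileups and 100% of 5000 joined regions came back. The simulated regions lay far apart, and the pileups were made with the formula that the recovery inverts. These tests therefore check the code and do not cover the joining of close or chained peaks.

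Genes and 250-base upstream sequences came from RefSeq GRCm38.p6 (all 3 Cdx and 17 listed symbols matched). No p-value across libraries was computed. Named regions follow a rule: all regions in the spans, all shared regions, and regions of 1 tissue with a fold of at least 4. For likeness, genes needed at least 10 regions. Members, lists and rules were chosen with earlier results of these data known. Software was pandas 2.3.3, scipy 1.17.1 and numpy 2.4.6 on Python 3.11.15, with matplotlib 3.10.9 for plots.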

Additional observations from a re-analysis of the deposited data

How the results depend on the processing

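Of 98 recomputed values, 77 stayed close to those reported and 21 moved. The 3 Cdx4 regions and the distal forelimb region of Cdx1 were called in 1 list in each setting run. Every setting used the same peaks or fewer, so a region could lose a list but not gain one. These settings therefore show only that the distal forelimb peaks were kept, and do not test their absence from the other lists. The shared Cdx1 region kept its 4 lists wherever all 4 were used. The Cdx2 region of 3 lists fell to 2 under the stricter −log10 q, 5 or more, and, by construction, without trunk. Windows of 50 kb held 15, 17 and 7 regions around Cdx1, Cdx2 and Cdx4, and windows of 200 kb held 44, 46 and 25. Regions called in all 4 tissues were 11 at Cdx2 and 2 at Cdx4 within 50 kb, and 19, 28 and 12 within 200 kb. Regions called in 1 tissue only were 4 at Cdx1 and 3 at Cdx2 within 50 kb, and 16 at Cdx1 within 200 kb. At Cdx1 they were 5 with a −log10 q of at least 5, 5 with pileups scaled to the lowest depth and a −log10 p of at least 5, and 3 in lists of equal length or without the posterior trunk list. Lists of equal length gave 3 at Cdx2. The trunk-only region in Cdx2 was called in 0 lists at equal length and, by construction, without trunk. Pileups were scaled without redrawing reads. No paired analysis was possible because no tissue had a replicate. Fewer peaks did not always lower these counts: at Cdx4, regions called in 1 tissue only were 5 as reported, 6 at equal length and 7 with scaled pileups.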
